A study of Glycine max with 24 samples.

Results

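The basic leucine zipper (bZIP) transcription factors of soybean (Glycine max) were followed on Affymetrix arrays in leaves with and without soybean aphids, insects that feed on phloem sap. A gene was counted as a member where the array annotation tied a probe set (several short probes for the same transcript) to that gene alone, and where its symbol or a RefSeq synonym began with bZIP or GmbZIP in upper or lower case. Each gene was read from 1 probe set, the one of highest mean over all arrays. This gave 67 genes, with 103 probe sets between them, of 6031 soybean genes that had a probe set of their own. A further 6 probe sets were tied to several genes at once and were left out of the counts. The 67 genes lie on 18 chromosomes, and RefSeq's annotation of Glycine_max_v4.0 listed 64 of them.

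The leaves were those of the third trifoliate, from the aphid-resistant cultivar LD05-16060 and from the aphid-susceptible cultivar SD01-76R. Infested plants had received 30 aphids at the V3 stage, 10 to a leaflet and 21 or more of them adults, and uninfested plants had received none. Leaves were taken after 7 days or after 1 day from plants kept under nets at 25 C with 16 h of light, with the aphids removed beforehand. The 8 groups were infested and uninfested resistant leaves of day 7, infested and uninfested resistant leaves of day 1, infested and uninfested susceptible leaves of day 7, and infested and uninfested susceptible leaves of day 1, each with 3 arrays, 24 in all. Each cultivar is a single line, so a cultivar difference cannot be told apart from any other difference between these lines. The question was how far leaf transcripts change with aphids in either cultivar, and whether the cultivars change unlike each other. The labels do not say whether replicates came from separate plants, so p-values cover only the spread among these arrays, and that spread may be technical.

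A bZIP factor holds DNA with a basic region and pairs with another bZIP protein through a leucine zipper, and most plant members recognise sites with an ACGT core. In Arabidopsis, ABF/AREB and ABI5-type members act in the response to abscisic acid, the hormone of drought and seed maturation. HY5-type members promote development in light, TGA factors work with NPR1 in the salicylate defence, and G-box factors bind promoters of light-regulated and stress genes. Several of these are on the soybean array, given here by array symbol with a RefSeq synonym in parentheses. They include BZIP1 (AREB1), BZIP36 (SOYSTF1A) and STF2 (SOYSTF1B) of the HY5 type, the G-box factors GBF2 and SOYGBFA, and LOC778136 (GmTGA24).

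One group stood apart before any bZIP gene was considered. On the first principal component of all soybean probe sets, the uninfested susceptible leaves of day 1 lay at 109.4, 69.1 and 75.2, replicate 2 of the infested resistant leaves of day 1 lay at 66.2, and the other 20 arrays at 34.8 or below. The control probe sets give a 3' minus 5' signal, which rises as RNA breaks. It was 1.721, 1.005 and 1.205 on the log2 scale in the uninfested susceptible leaves of day 1 and 1.504 in replicate 2 of the infested resistant leaves of day 1, against 0.723 to 1.385 on the other 20. The mean level of 8 phloem genes, the SEO family of sieve element occlusion proteins, was highest on the same 4 arrays, at 7.80, 6.88 and 6.79 in uninfested susceptible leaves of day 1 and at 6.94 in that infested resistant replicate, against 5.48 to 6.73 elsewhere. In bulk samples, fewer cells of a type and less RNA per cell cannot be told apart. The mean of 6 leaf genes (chlorophyll-binding proteins and Rubisco activases) lay between 10.89 and 12.08 on every array, near or above the 95th percentile of all values (11.16). Over all 37593 soybean probe sets, the uninfested susceptible leaves of day 1 held the highest of the 8 group means for 25.8% and the lowest for 27.6%. Among the 67 bZIP genes they held the highest mean for 14 (20.9%) and the lowest for 26 (38.8%). That group enters the aphid effect in susceptible leaves on day 1, the cultivar difference of day 1 and the day difference in susceptible leaves. It also enters the cultivar difference in aphid effect on day 1 and the day difference in aphid effect in susceptible leaves. All of these comparisons share its arrays and are not independent.

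Levels are log2 intensities after quantile normalization and are comparable between arrays for 1 probe set, not between probe sets. Of the 67 genes, 38 had a mean above the median of all probe sets (7.62), and 1 gene, BZIP82, had all 8 group means under the 5th percentile of all values (5.28). The 8 group means of a bZIP gene spanned a median of 0.67 on the log2 scale, against 0.51 over all probe sets, and 19 genes (28.4%) spanned over 1, against 18.7% of all probe sets. The widest spans were those of BZIP50 (4.56), BZIP48 (3.24) and BZIP71 (2.90). Altogether 29 genes passed an adjusted p of 0.05 in at least 1 of 12 comparisons, 16 of them in 1 comparison only, and 38 passed in none. The share of all probe sets that passed in at least 1 comparison was not counted. In the cultivar difference of uninfested leaves on day 1 alone, 18.7% of all probe sets passed. The count of 29 is therefore not shown to be particular to the family.

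**Figure D1:**
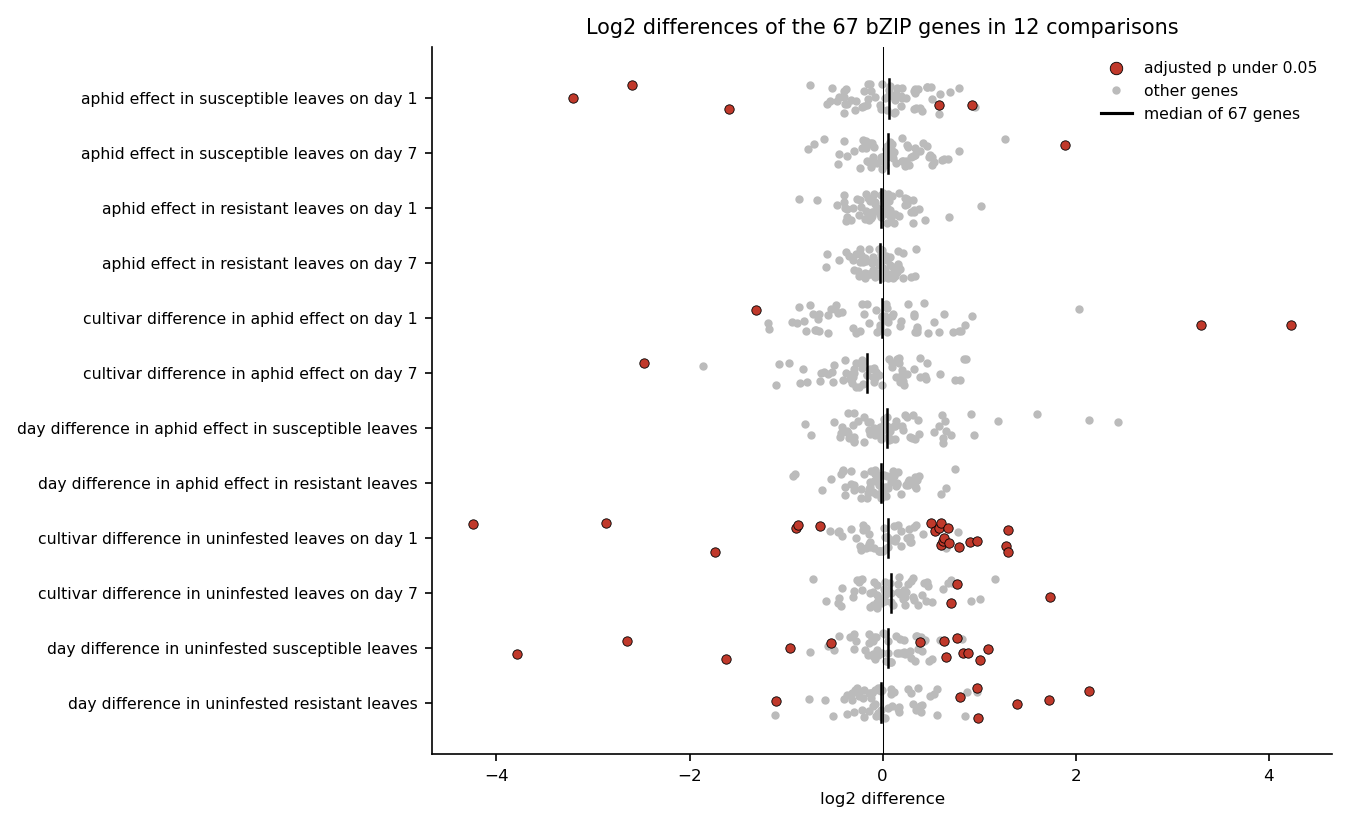
Log2 differences (horizontal axis) of the 67 bZIP genes in each of 12 comparisons (rows), 1 point per gene, with genes past an adjusted p of 0.05 in red and a bar at the median of the 67 genes. Calls are most numerous in the cultivar difference of uninfested leaves on day 1, with 21 genes, and there are 0 in both aphid effects of resistant leaves.

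In susceptible leaves on day 1, 3 bZIP genes were lower with aphids (BZIP48, BZIP50 and BZIP58) and 2 were higher (BZIP130 and BZIP81). These 5 were 7.46% of the bZIP genes, where 5.01% of all probe sets passed, 1.72% higher and 3.29% lower. All 3 infested arrays lay apart from all 3 uninfested arrays for 32 of the 67 genes (47.8%), where 31% of all probe sets did so. The median difference was 0.07 over the bZIP genes and 0.00 over all probe sets, and on unscaled values -0.050 and -0.126, with the sign turned. The split of 2 higher and 3 lower was 0 and 2 on unscaled values, 4 and 3 with median centring and 3 and 3 with normexp background correction.

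BZIP50 gave the widest difference. Its level was 6.08, 7.29 and 6.72 in infested susceptible leaves of day 1, against 10.79, 9.24 and 9.70 in uninfested ones. Every infested array lay well below every uninfested one. The difference was -3.21 ± 0.64 on the log2 scale (SE, n = 3 arrays a group; limma, adjusted p = 0.0167), a level 9.27-fold lower, and a further BZIP50 probe set gave -2.06 ± 0.40. In the other groups BZIP50 was near the bottom of the scale: 5.55, 5.41 and 5.49 in infested resistant leaves of day 7, 5.19, 5.42 and 5.60 in uninfested ones, 5.26, 5.51 and 6.25 in uninfested resistant leaves of day 1, and 5.43, 5.21 and 5.40 in infested susceptible leaves of day 7. The uninfested susceptible leaves of day 7 had 5.71, 5.57 and 7.08. The infested resistant leaves of day 1 had 5.62, 8.95 and 5.49, with replicate 2 far above its group. That array is the fourth of those described above, and no other array outside the uninfested susceptible leaves of day 1 exceeded 7.29.

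BZIP48 followed the same arrays. It had 5.55, 5.87 and 5.87 in infested susceptible leaves of day 1, against 9.66, 7.56 and 7.88 in uninfested ones, a difference of -2.60 ± 0.46 (limma, adjusted p = 0.0136). The 2 groups did not overlap. The infested resistant leaves of day 1 had 5.62, 7.54 and 5.43, and the 20 arrays outside the uninfested susceptible leaves of day 1 and that replicate 2 lay between 4.97 and 6.19. BZIP58 had 4.97, 5.06 and 5.54 in infested susceptible leaves of day 1, against 8.26, 5.92 and 6.16 in uninfested ones, with a fitted difference of -1.59 ± 0.39 (limma, adjusted p = 0.0301). The infested mean, 5.19, is below the 5th percentile of all values, so BZIP58 was not shown to be above background there and the size of its fall is not exact. Across the 24 arrays the levels of BZIP50 and BZIP48 correlated at r = 0.97, and at 0.94 over the 21 arrays outside the uninfested susceptible leaves of day 1. Both values come from the same libraries and lean on the same few high arrays, and r is given as a description.

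**Figure D2:**
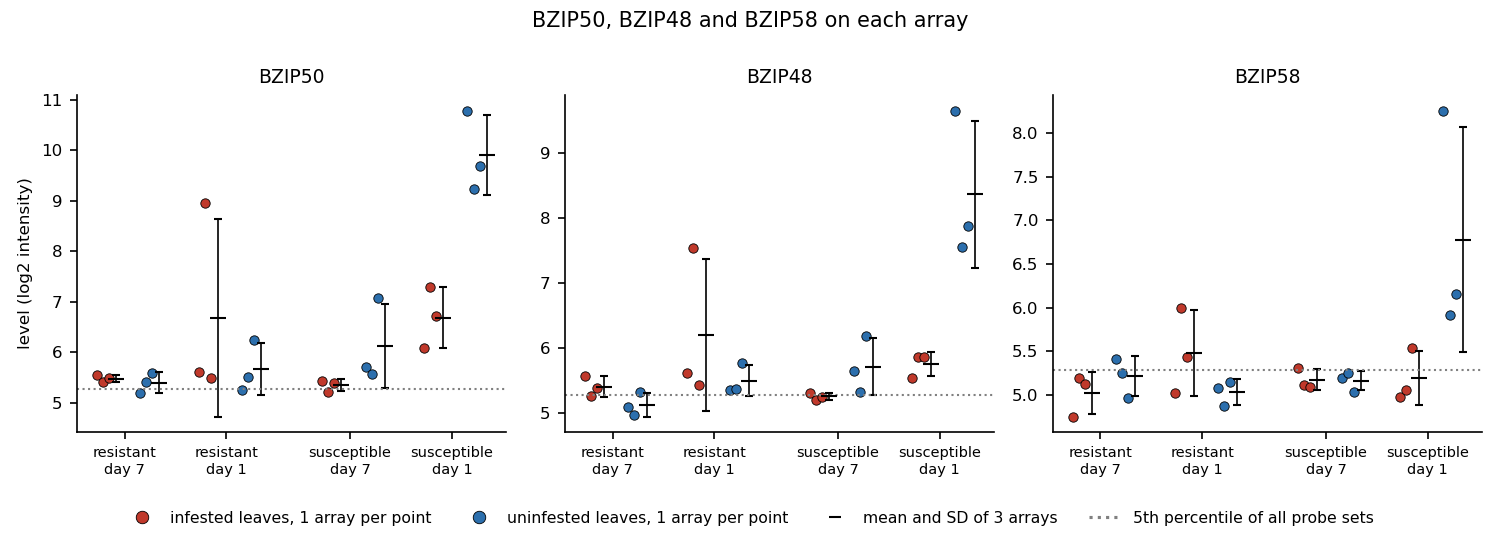
Levels of BZIP50, BZIP48 and BZIP58 (log2 intensity, vertical axes) on each array, by cultivar and day, with infested leaves in red left of uninfested leaves in blue, the mean and SD of 3 arrays beside the points, and the 5th percentile of all probe sets (5.28) as a dotted line. The uninfested susceptible leaves of day 1 are high in each panel, and replicate 2 of the infested resistant leaves of day 1, at 8.95, 7.54 and 5.99, is the next highest array for BZIP50 and BZIP48.

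The 4 arrays of highest BZIP50 level were also the 4 of highest BZIP48 level, of highest phloem gene level and of highest first principal component. In this comparison all 8 phloem genes had a difference below 0 (median -0.56) and 0 of them passed. For the 3' minus 5' signal the 4 arrays ranked 1, 2, 4 and 8 of 24, and infested susceptible leaves of day 7 had a signal of 1.385 in replicate 3 with BZIP50 at 5.40. With the 3' minus 5' signal as a covariate, BZIP48 alone of the 5 genes passed (-1.68 ± 0.28; limma, adjusted p = 0.0388). Without the 3 arrays least like the others, which include uninfested susceptible replicate 1 of day 1 and infested resistant replicate 2 of day 1, BZIP48 (-1.95), BZIP50 (-2.77), BZIP130 (0.83) and BZIP58 (-0.85) passed and BZIP81 (0.46) did not. Without replicate 1 of the infested susceptible leaves of day 1, or without replicate 1 of the uninfested ones, 0 of the 5 passed, with BZIP48 at -2.50 and -1.95 (limma, adjusted p = 0.0788 and 0.0881). The count was 12 without uninfested susceptible replicate 2, 8 without its replicate 3, and 3 without infested replicate 2 or 3. Throughout, the share of all probe sets that passed without an array or under another setting is not given. Such moves in the counts cannot be read as particular to bZIP genes. How much of the BZIP50, BZIP48 and BZIP58 differences goes with phloem content or RNA quality was not tested beyond these values.

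**Figure D3:**
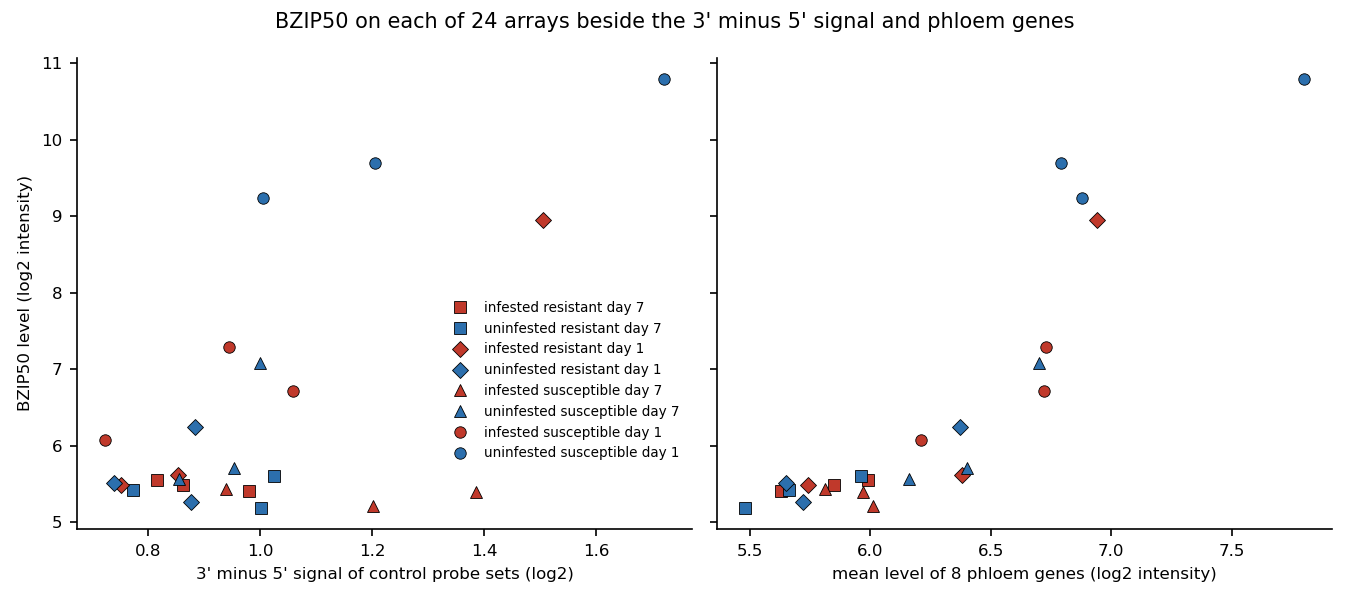
BZIP50 level (log2 intensity, vertical axis) on each of 24 arrays against the 3' minus 5' signal of controls (log2, left) and the mean level of 8 phloem genes (log2 intensity, right), with infested leaves in red and uninfested leaves in blue, and cultivar and day shown by the symbol. The 4 arrays with BZIP50 above 8.9 have the 4 highest phloem means, the lowest of them at 6.79. The next phloem means are close, at 6.73, 6.72 and 6.70, with BZIP50 at 7.29, 6.72 and 7.08. Replicate 3 of the infested susceptible leaves of day 7 has a signal of 1.385 with BZIP50 at 5.40. Which measure BZIP50 goes with was not tested.

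BZIP130 moved the other way. It had 7.89, 7.75 and 7.74 in infested susceptible leaves of day 1, against 6.66, 6.85 and 7.08 in uninfested ones. The groups did not overlap, and the difference was 0.93 ± 0.16 (limma, adjusted p = 0.0136), or 1.91-fold. BZIP81 had 7.28, 7.21 and 7.13 in infested leaves and 6.38, 6.73 and 6.77 in uninfested leaves, a difference of 0.58 ± 0.15 (limma, adjusted p = 0.0372). For each of the 5 genes the uninfested susceptible leaves of day 1 held the most extreme of the 8 group means, highest for the 3 that were lower with aphids and lowest for the 2 that were higher.

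In susceptible leaves on day 7, BZIP71 alone passed, and it was higher with aphids. Its level was 12, 12.04 and 11.43 in infested leaves, against 9.59, 10.39 and 9.82 in uninfested leaves. The lowest infested array was about 1 unit above the highest uninfested one. The difference was 1.89 ± 0.30 (limma, adjusted p = 0.00259), or 3.71-fold, and the other BZIP71 probe set gave 1.80 ± 0.28 (adjusted p = 0.00178). On the first principal component of all soybean probe sets, the infested arrays lay at -49.5, -55.4 and -46.9 and the uninfested ones at 10.8, -14.9 and 34.8. Counted from the highest, the arrays ranked 1 to 9 of 24 by BZIP71 level ranked 16 to 24 on that component. How far the BZIP71 difference goes with that component was not tested. BZIP71 passed in all 10 other settings tried and when any 1 of the 6 arrays was left out, with values between 1.72 and 2.21. This was 1 gene of 67, or 1.49%, where 2.84% of all probe sets passed, 1.94% higher and 0.894% lower, and the arrays of the 2 groups lay apart for 20 bZIP genes (29.9%), where 24.3% of all probe sets did so.

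Genes just short of the threshold in that comparison were BZIP47 (-0.61 ± 0.17; limma, adjusted p = 0.0531), GBF2 (1.27 ± 0.35, 0.0538), BZIP1 (0.68 ± 0.19, 0.0612) and BZIP62 (0.46 ± 0.14, 0.071). GBF2 had 8.90, 8.29 and 7.67 in infested susceptible leaves of day 7, against 6.75, 7.77 and 6.53 in uninfested ones, and the groups overlapped. BZIP1, whose product AREB1 binds abscisic acid response elements, had 9.50, 9.61 and 9.24 in infested leaves and 8.84, 8.72 and 8.74 in uninfested leaves, without overlap. BZIP62, known from overexpression in Arabidopsis for tolerance of salt and freezing, had 7.70, 8.12 and 8.05 in infested leaves and 7.54, 7.34 and 7.60 in uninfested leaves, also without overlap. The count in this comparison depended on the setting: 7 genes passed without the 3 arrays least like the others, with BZIP38 (0.61), GBF2, BZIP1, BZIP62, BZIP47 and LOC778142 (0.51) beside BZIP71, and 9 with the 3' minus 5' covariate. The split of 1 higher and 0 lower was 4 and 2 with median centring and 10 and 0 on unscaled values, where the median of all probe sets was 0.258.

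Genes tied to abscisic acid, in whose response ABF-type bZIP factors act, were read from lists. For its synthesis and signalling only 4 SPK genes were matched by name. No gene of its synthesis and no receptor, phosphatase or ABI gene was read, so the pathway was not covered. Another list held 30 genes named as seed maturation (PM and MAT), late embryogenesis or dehydrin genes. It was matched by name, and not every gene on it need be a late embryogenesis or dehydrin gene. In infested susceptible leaves of day 7, 7 of the 30 were higher and 0 lower. Of the 30, 28 had a difference above 0 (median 0.44, against -0.03 over all probe sets). The seed maturation gene PM30 averaged 10.99 in infested leaves and 5.92 in uninfested leaves (5.07 ± 1.11; limma, adjusted p = 0.0175), and the maturation gene MAT1 averaged 11.98 and 7.19 (4.79 ± 1.16, 0.0297). Of 4 SPK genes, which encode SnRK2-type protein kinases, 2 were higher, SPK-4 by 1.41 ± 0.19 (limma, adjusted p = 0.000804) and SPK-3 by 0.75 ± 0.18 (0.0318). SPK-1 and SPK-2 differed by -0.08 and 0.04. In the other 3 aphid effects 0 genes of either list passed. Of 4 salicylate genes that TGA factors are known to serve and 7 genes of light signalling around HY5, 0 passed in any of the 4 aphid effects, nor did 8 phloem, 10 seed, or 4 root and nodule genes. Of the 6 leaf genes, 1 was lower in infested susceptible leaves of day 7.

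In resistant leaves 0 bZIP genes passed on day 1 and 0 on day 7. The share of all probe sets that passed was 0% on day 1 and 0.00266% on day 7. At an unadjusted p of 0.05 the counts were 6 of 67 on day 1 and 3 of 67 on day 7, against 2865 and 1070 of 37593 probe sets. The arrays of infested and uninfested leaves lay apart for 8 genes (11.9%) on day 1 and 5 (7.46%) on day 7, where 9.66% and 7.43% of all probe sets did so. The smallest p on day 1 were those of BZIP121 (0.31 ± 0.12), LOC778136 (-0.40 ± 0.16) and BZIP109 (-0.39 ± 0.17), with limma's adjusted p at 0.623, 0.623 and 0.624. On day 7 they were those of BZIP130 (-0.45 ± 0.16), LOC778142 (-0.35 ± 0.16) and BZIP95 (-0.26 ± 0.12), each with an adjusted p of 1.

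The aphid effects of the cultivars were then set against each other, as the resistant effect minus the susceptible one. On day 1 the effect differed for BZIP130 (-1.31 ± 0.23; limma, adjusted p = 0.0305), BZIP48 (3.30 ± 0.65, 0.0406) and BZIP50 (4.23 ± 0.90, 0.0422). These 3 genes were 4.48% of the family, where 0.886% of all probe sets passed, 0.633% higher and 0.253% lower. On unscaled values 0 genes were higher and 0 lower, so all 3 calls ended, while the split was 3 and 1 with median centring and 4 and 6 with array weights. BZIP130 had 7.78, 7.53 and 8.05 in infested resistant leaves of day 1, against 8.39, 8.10 and 8.0 in uninfested ones, so its resistant arrays overlapped while its susceptible arrays, given above, did not. BZIP48 had 5.36, 5.37 and 5.78 in uninfested resistant leaves of day 1, below 7.54 in infested replicate 2 and overlapping the other infested arrays. Without that replicate the BZIP48 and BZIP50 values were 2.62 and 3.09 and 0 genes passed (limma, adjusted p = 0.0612 for each). The count was also 0 without replicate 1 or 2 of uninfested resistant leaves or without any 1 of the infested susceptible replicates. It was 0 without replicate 1 of the uninfested susceptible leaves too, and rose to 15 without replicate 3 of infested resistant leaves. All of these arrays are of day 1, and the share of all probe sets that passed without each is not given here.

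On day 7 the effect differed for BZIP71 alone (-2.47 ± 0.43; limma, adjusted p = 0.0175), 1.49% of the family where 0.676% of all probe sets passed, 0.279% higher and 0.396% lower. In resistant leaves of day 7 it had 10.57, 11.60 and 11.07 with aphids, against 12.11, 11.79 and 11.08 without. These overlapped, at a difference of -0.58 ± 0.30 (limma, adjusted p = 1). The uninfested resistant leaves also overlapped with the infested susceptible leaves of that day. The other BZIP71 probe set gave -2.37 ± 0.39 (adjusted p = 0.0155). The call was lost without replicate 1 of any of the 4 groups of day 7 or without replicate 3 of uninfested susceptible leaves, with values from -2.22 to -2.42 and limma's adjusted p from 0.053 to 0.0609. Next in that comparison were BZIP130 (-0.97 ± 0.23, adjusted p = 0.0561), BZIP1 (-1.07 ± 0.27, 0.0675), LOC778142 (-0.86 ± 0.23, 0.0738) and GBF2 (-1.86 ± 0.49, 0.0741), none of which passed.

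The aphid effect of day 7 minus that of day 1 passed for 0 bZIP genes in resistant leaves and 0 in susceptible leaves, where 0% of all probe sets passed in either cultivar. At an unadjusted p of 0.05 limma gave 2 of 67 genes in resistant leaves (1032 of all probe sets) and 12 in susceptible leaves (5928).

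Among uninfested leaves of day 1, 15 bZIP genes were higher and 6 lower in the resistant than in the susceptible cultivar. The 21 were 31.3% of the family, where 18.7% of all probe sets passed, 8.91% higher and 9.79% lower. Arrays of the cultivars lay apart for 28 genes (41.8%), where 39.6% of all probe sets did so. For 20 of the 21 genes the susceptible leaves held the highest or lowest of all 8 group means. The phloem genes went with this comparison too: 6 of 8 were lower in resistant leaves, with a median of -1.11. In other factor families, 15 of 53 WRKY genes were higher and 0 lower, 7 of 71 MYB genes were higher and 1 lower, and 5 of 20 NAC genes were higher and 0 lower. The count of bZIP genes was 12 without the 3 arrays least like the others and 6 with the 3' minus 5' covariate, and it fell to 10 without uninfested susceptible replicate 1, to 11 without uninfested resistant replicate 2 and to 12 without uninfested resistant replicate 1. Of the 21 calls, 10 held whichever 1 of the 6 arrays was left out: BZIP38, BZIP48, BZIP50, BZIP58, BZIP95, BZIP109, BZIP110, BZIP111, BZIP130 and LOC778142.

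The lower genes were led by BZIP50 (-4.24 ± 0.64; limma, adjusted p = 0.000594), BZIP48 (-2.87 ± 0.46, 0.000906) and BZIP58 (-1.74 ± 0.39, 0.00534). The others were BZIP46 (-0.90), BZIP112 (-0.88) and BZIP85 (-0.65). BZIP112, like BZIP58, averaged below the 5th percentile in resistant leaves, at 5.15, so the size of its difference is not exact.

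Among the higher genes, BZIP130 had the smallest p. It had 8.39, 8.10 and 8.0 in resistant leaves, against 6.66, 6.85 and 7.08 in susceptible ones. The lowest resistant array lay above the highest susceptible one, and the difference was 1.30 ± 0.16 (limma, adjusted p = 0.000159), or 2.46-fold. BZIP95 had 10.77, 10.83 and 10.84 in resistant leaves and 9.81, 10.25 and 10.34 in susceptible leaves (0.68 ± 0.12; limma, adjusted p = 0.00156). BZIP111 had 8.15, 8.56 and 7.98 in resistant leaves and 7.13, 7.47 and 7.16 in susceptible leaves (0.98 ± 0.20; limma, adjusted p = 0.003). Each of these genes was higher on all 3 resistant arrays than on any susceptible one.

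BZIP110 had 9.59, 10.26 and 9.30 in resistant leaves and 8.10, 8.87 and 8.28 in susceptible leaves (1.30 ± 0.29; limma, adjusted p = 0.00569), and its other 2 probe sets passed as well, at 1.91 and 1.31. BZIP109 had 10.28, 10.17 and 9.84 in resistant leaves and 9.25, 9.06 and 9.61 in susceptible leaves (0.79 ± 0.17; limma, adjusted p = 0.00377). BZIP38 had 11.38, 11.45 and 11.00 in resistant leaves and 9.22, 10.45 and 10.34 in susceptible leaves (1.28 ± 0.28; limma, adjusted p = 0.00469). None of the 3 overlapped between cultivars. The remaining higher genes differed by 0.50 to 0.90: BZIP1, BZIP117, BZIP16, BZIP37, BZIP44, BZIP81, BZIP98, LOC778136 and LOC778142. BZIP98 overlapped between the cultivars, and its other probe set gave -0.14. The other BZIP1 probe set gave 0.27 and did not pass.

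On day 7 the uninfested cultivars differed for 3 genes, all higher in resistant leaves, which is 4.48% of the family where 2.28% of all probe sets passed, 1.36% higher and 0.918% lower. Arrays lay apart for 19 genes (28.4%), where 23% of all probe sets did so. BZIP71 differed by 1.73 ± 0.30 (limma, adjusted p = 0.00605), from the values given above. BZIP130 had 8.40, 8.45 and 8.68 in resistant leaves and 7.70, 7.99 and 7.53 in susceptible leaves (0.77 ± 0.16; limma, adjusted p = 0.0192). LOC778142 had 9.63, 9.45 and 9.81 in resistant leaves and 8.95, 8.87 and 8.93 in susceptible leaves (0.71 ± 0.16; limma, adjusted p = 0.0254). The groups did not overlap for any of the 3. Leaving out uninfested resistant replicate 1 of day 7 took the count to 0, and leaving out replicate 1 or 3 of the uninfested susceptible leaves took it to 1.

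BZIP130 and LOC778142 were thus higher in uninfested resistant leaves on both days. Their probe sets carry the same cluster number in their names, and either may read part of the other's RNA, which was not tested. The levels of the pair correlated at r = 0.90 over 24 arrays, and at 0.70 after each group's mean was taken away. On day 1 LOC778142 had 9.49, 9.27 and 9.20 in uninfested resistant leaves, against 8.49, 8.73 and 8.67 in susceptible ones (0.69 ± 0.16; limma, adjusted p = 0.0066). Its further probe set, outside that cluster, gave 0.33 on day 1 and 0.50 on day 7, and passed on neither. Of 6 other pairs of members that share a cluster number, BZIP37 and BZIP38 had r = 0.98, BZIP53B and LOC780550 0.73, BZIP110 and BZIP111 0.73, BZIP61 and BZIP62 0.63, BZIP101 and LOC778122 0.48, and BZIP108 and BZIP109 0.21. For BZIP110 and BZIP101, r was read from a probe set in the shared cluster, while their counted probe sets lie outside it. Members counted from probe sets of the same cluster cannot be taken as independent counts.

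**Figure D4:**
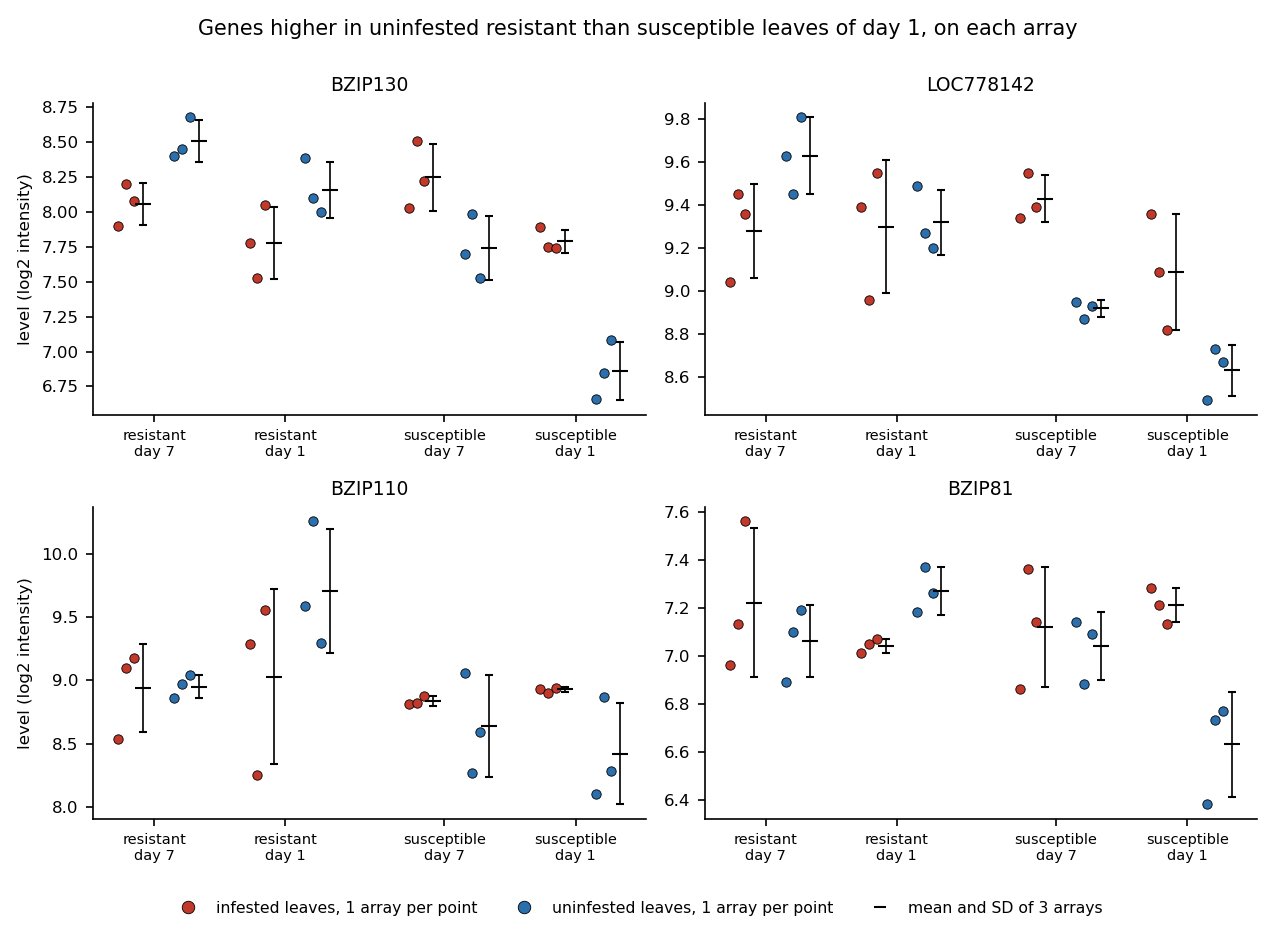
Levels of BZIP130, LOC778142, BZIP110 and BZIP81 (log2 intensity, vertical axes) on each array, by cultivar and day, with infested leaves in red left of uninfested leaves in blue and the mean and SD of 3 arrays beside them. The uninfested susceptible leaves of day 1 have the lowest mean in each panel, at 6.86 for BZIP130, and uninfested resistant leaves of day 7 the highest for BZIP130, at 8.51.

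Between day 7 and day 1, uninfested resistant leaves differed for 7 bZIP genes, 6 higher and 1 lower on day 7. This was 10.4% of the family, where 3.91% of all probe sets passed, 2% higher and 1.91% lower, and arrays lay apart for 25 genes (37.3%), where 23.8% of all probe sets did so. BZIP71 was the first of them, with 12.11, 11.79 and 11.08 on day 7 and 9.66, 9.57 and 9.33 on day 1. No day 7 array was within 1 unit of a day 1 array, and the difference was 2.14 ± 0.30 (limma, adjusted p = 0.00111), or 4.40-fold. BZIP71 passed in all 10 other settings and without any 1 of the 6 arrays. On the first principal component these day 7 arrays lay at -66.0, -46.1 and -44.4 and the day 1 arrays at -17.5, -7.2 and 22.6. On unscaled values 2 genes were higher and 1 lower.

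The G-box factor GBF2 had 8.82, 8.17 and 7.52 on day 7, against 6.62, 6.34 and 6.39 on day 1 (1.72 ± 0.35; limma, adjusted p = 0.00868). STF2, of the HY5 type, had 7.43, 6.60 and 6.41 on day 7, against 5.89, 5.99 and 5.63 on day 1 (0.98 ± 0.21; limma, adjusted p = 0.0128). BZIP36, the other HY5-type member, had 8.45, 7.18 and 7.11 on day 7, against 6.47, 6.04 and 6.06 on day 1 (1.39 ± 0.36; limma, adjusted p = 0.0343). In each of these genes replicate 1 of day 7 was the highest array, and none overlapped between the days. Without that replicate BZIP71 alone of the 7 genes passed. The count was 2 without day 1 replicate 2, 3 without its replicate 3 and 4 without its replicate 1.

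BZIP1 (AREB1) had 9.70, 9.44 and 9.29 on day 7, against 8.57, 8.82 and 8.64 on day 1 (0.80 ± 0.19; limma, adjusted p = 0.0245). BZIP68 was higher by 0.99 ± 0.25 (limma, adjusted p = 0.0292), while its other probe set gave 0.55 and did not pass (0.174). LOC100127361, with the synonym bZIP84, was lower by 1.10 on the log2 scale (-1.10 ± 0.27; limma, adjusted p = 0.0266). Among listed genes, SPK-4 (1.53 ± 0.19; limma, adjusted p = 0.00054) and SPK-3 (1.08 ± 0.18, 0.00339) were higher on day 7 in these leaves. Of the 30 genes named as seed maturation, late embryogenesis or dehydrin genes, 2 were higher. Of 7 light signalling genes 1 passed, CHS1, a chalcone synthase of flavonoid synthesis that HY5 is known to activate in Arabidopsis. It was lower on day 7, at 7.75 against 11.14 on day 1 (-3.39 ± 0.91; limma, adjusted p = 0.0406).

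**Figure D5:**
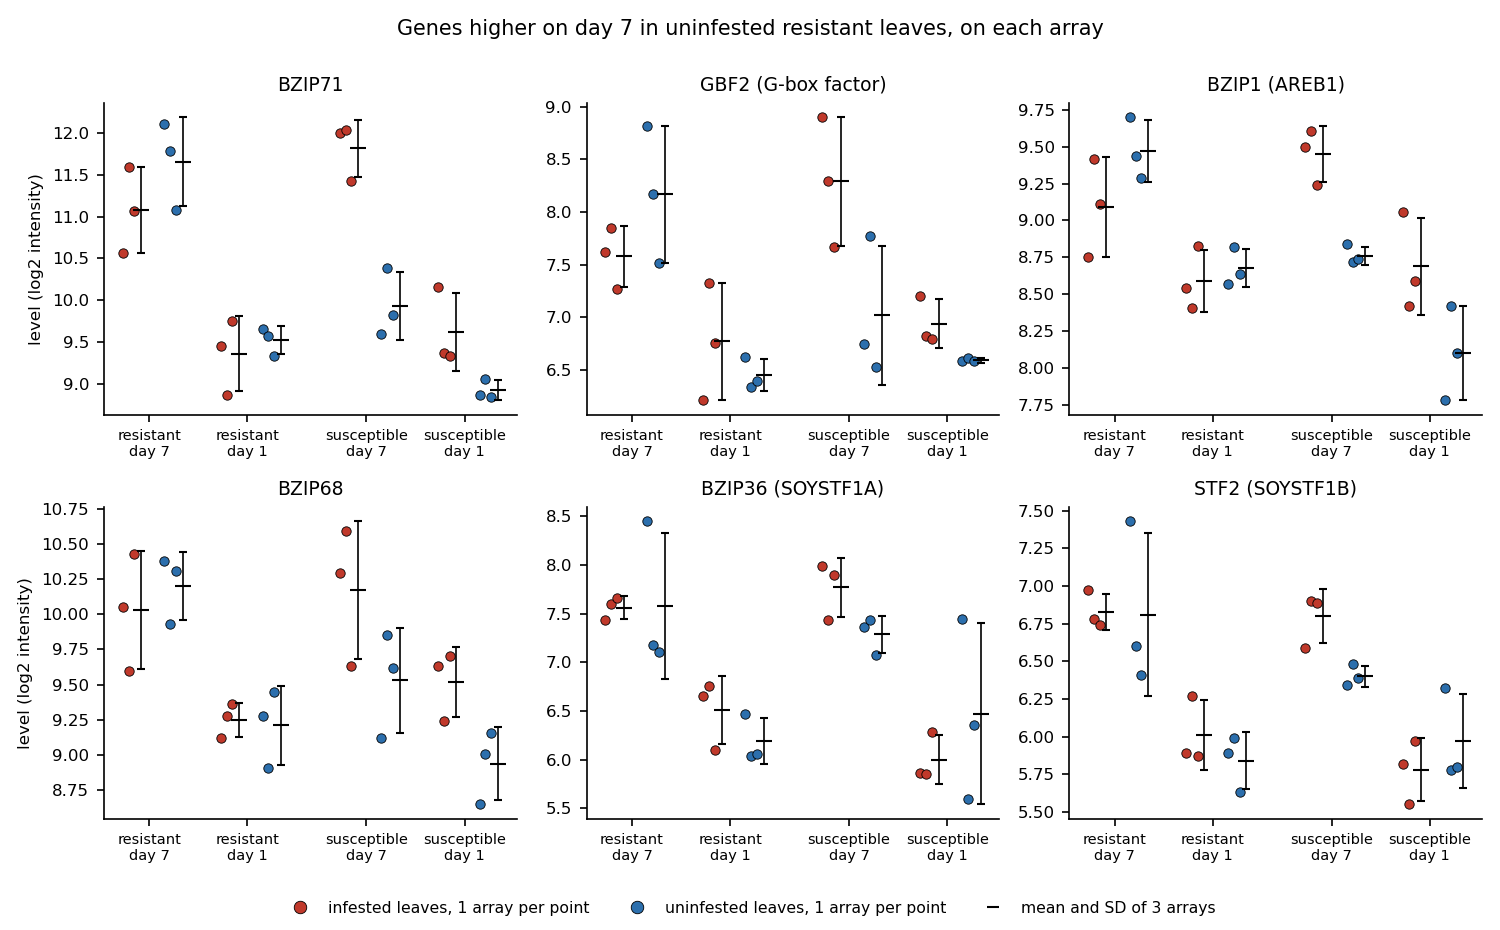
Levels of BZIP71, GBF2, BZIP1, BZIP68, BZIP36 and STF2 (log2 intensity, vertical axes) on each array, by cultivar and day, with infested leaves in red left of uninfested leaves in blue and the mean and SD of 3 arrays beside them. BZIP71 averages 11.66 in uninfested resistant leaves of day 7 and 9.52 in those of day 1, and in susceptible leaves of day 7 its infested arrays, from 11.43 to 12.04, lie above its uninfested arrays, from 9.59 to 10.39.

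In uninfested susceptible leaves 13 genes differed between the days, 8 higher and 5 lower on day 7. This was 19.4% of the family, where 10.5% of all probe sets passed, 5.22% higher and 5.28% lower, and arrays lay apart for 24 genes (35.8%), where 31.3% of all probe sets did so. For all 13 the leaves of day 1 held the highest or lowest of the 8 group means. The lower genes were BZIP50 (-3.79 ± 0.64; limma, adjusted p = 0.00413), BZIP48 (-2.65 ± 0.46, 0.00443), BZIP58 (-1.62 ± 0.39, 0.0153), BZIP46 (-0.96 ± 0.23, 0.0167) and BZIP53B (-0.53 ± 0.16, 0.042). The higher genes were BZIP38 (1.09), BZIP71 (1.01), BZIP130 (0.88), BZIP44 (0.83), BZIP37 (0.77), BZIP1 (0.66), BZIP55 (0.64) and BZIP95 (0.39). BZIP44, known like BZIP62 for salt and freezing tolerance when overexpressed in Arabidopsis, had 6.42, 6.29 and 6.23 on day 7, against 5.45, 5.59 and 5.40 on day 1 (0.83 ± 0.18; limma, adjusted p = 0.011), without overlap. The count was 9 without the 3 arrays least like the others, 3 with the 3' minus 5' covariate, 3 without day 1 replicate 1, and 2 and 5 without day 7 replicates 2 and 1. On unscaled values 2 genes were higher and 2 lower. Of the 13 calls, those of BZIP48 and BZIP50 held whichever 1 of the 6 arrays was left out.

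BZIP71 and BZIP1 passed between days in both cultivars, but not equally firmly. In susceptible leaves the BZIP71 call (limma, adjusted p = 0.0405) was lost without any 1 of the 6 arrays and in 4 of 10 other settings, and its other probe set gave 0.81 (0.0667). The BZIP1 call held without 1 of the 6 arrays only, in either cultivar. The other BZIP1 probe set gave 1.05 in resistant leaves (limma, adjusted p = 0.00719) and 0.38 in susceptible leaves (0.245). Whether the day difference itself differed between cultivars was not tested. The order of the BZIP71 group means was infested susceptible day 7 (11.82 ± 0.34, SD), uninfested resistant day 7 (11.66 ± 0.53), infested resistant day 7 (11.08 ± 0.51), uninfested susceptible day 7 (9.93 ± 0.41), infested susceptible day 1 (9.62 ± 0.47), uninfested resistant day 1 (9.52 ± 0.17), infested resistant day 1 (9.36 ± 0.45) and uninfested susceptible day 1 (8.92 ± 0.12), with n = 3 each. The 3 highest overlapped with each other and not with the fourth. From the fourth down, each group overlapped with the next in the ranges of its arrays.

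The remaining members with well-known roles did not pass with aphids. LOC778136 (GmTGA24), a TGA factor, had aphid effects of 0.34 ± 0.16 and -0.10 ± 0.16 in susceptible leaves on days 1 and 7, and of -0.40 ± 0.16 and -0.14 ± 0.16 in resistant leaves. In uninfested leaves of day 1 it was higher in the resistant cultivar, at 10.22, 10.33 and 10.30 against 9.45, 9.93 and 9.85 in the susceptible one (0.54 ± 0.16; limma, adjusted p = 0.0281). SOYGBFA, a G-box factor, had aphid effects between -0.16 and 0.14 in the 4 comparisons and passed in none of the 12. The HY5-type members STF2 and BZIP36 had aphid effects between -0.47 and 0.48 and passed in none of the 4. BZIP132, known for drought and salt phenotypes when overexpressed in Arabidopsis, had effects between -0.16 and 0.05.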

How the data were processed

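Expression was measured on 24 Affymetrix soybean arrays, 3 in each of 8 groups that the labels give. The authors deposited a table of log2 values per probe set, and the submitters' processing notes name RMA, GCRMA and limma without their roles. For the summarisation of probes, a method was not given in the sources used here. Array medians ran from 7.00 to 8.04, and 99.61% of the values were whole numbers within 0.01 once taken back to the linear scale, so the deposited log2 values were quantile normalized here over 37593 soybean probe sets.

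Means of the 8 groups were fitted in limma 3.58.1 (R 4.3.3) with lmFit and eBayes, on 16 residual degrees of freedom. Each of 12 contrasts was adjusted by Benjamini-Hochberg over all 37593 probe sets, with a threshold of 0.05. The fit was tested on simulated data. The 3 arrays per group limit the precision. A level under the 5th percentile of all values, 5.28, was taken as not shown to be above background. No pair of arrays correlated above 0.991, so none was taken as a repeat.

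All called members are named. Values per array are given for the 10 genes of smallest adjusted p, for others called in an aphid effect and for some members with a textbook role. Where no member was called in an aphid effect, the 3 of smallest p are given. The members and all gene lists were chosen with earlier results of these data known. Alternatives were background correction, scaling, a filter on dim probe sets, the variance model, array weights, the groups fitted, the replicate block, an RNA quality covariate, the probe set per gene, a 2-fold minimum and leaving out each array. A fit without the 3 arrays least correlated with the rest (uninfested susceptible day 1 replicate 1, uninfested resistant day 7 replicate 1 and infested resistant day 1 replicate 2) was chosen after seeing the data. Gene names are those of the array annotation, with synonyms from RefSeq, and no sequence was used here.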

Additional observations from a re-analysis of the deposited data

Results flagged for a closer look

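For 4 results the aphid effect differed between the cultivars by a test of the difference itself, the resistant effect minus the susceptible one in limma. On day 1 these were BZIP50 (4.23), BZIP48 (3.30) and BZIP130 (-1.31). For BZIP50, infested leaves averaged 6.69 and uninfested leaves 5.67 in the resistant cultivar, and infested leaves averaged 6.69 and uninfested leaves 9.91 in the susceptible cultivar. The infested resistant mean of BZIP50 has an SD of 1.96, set by replicate 2 at 8.95. For BZIP130 the means were 7.78 with aphids and 8.16 without in resistant leaves, and 7.79 and 6.86 in susceptible leaves. On day 7 the result was BZIP71 (-2.47), with means of 11.08 with aphids and 11.66 without in resistant leaves, and 11.82 and 9.93 in susceptible leaves.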

How the results depend on the processing

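Other settings and fits without 1 array together gave 865 values for the called genes. Of these, 600 still passed, 265 kept their direction without passing and 0 changed sign. These genes were picked because they passed on the same arrays, so the kept direction is not independent support. Counts of called bZIP genes moved more. The share of all probe sets that passed under each setting is not given here, so these moves cannot be read as particular to bZIP genes. In susceptible leaves on day 1 (5 genes), the aphid effect gave 2 on unscaled values, 3 among probe sets above the median mean, 14 with array weights, 3 with only its own groups fitted, 1 with the 3' minus 5' covariate and 3 at a 2-fold minimum. On day 7 (1 gene) it gave 10 on unscaled values, 6 with median centring, 2 among brighter probe sets, 7 with array weights, 4 with its own groups, 9 with the covariate, 4 with any probe set of the gene and 7 without the 3 arrays least like the others. The cultivar difference in aphid effect on day 1 (3 genes) gave 0 on unscaled values, among brighter probe sets, with its own groups and with the covariate, 10 with array weights and 1 without the 3 arrays. On day 7 (1 gene) it gave 5 on unscaled values, 4 with median centring, 2 among brighter probe sets, 4 with array weights, 0 with its own groups, 7 with the covariate and 3 with any probe set. The day difference in aphid effect in susceptible leaves (0 genes) gave 6 with array weights and 1 without the 3 arrays. The uninfested cultivar difference of day 1 (21 genes) gave 12 among brighter probe sets, 6 with the covariate, 6 at a 2-fold minimum and 12 without the 3 arrays. That of day 7 (3 genes) gave 9 with array weights, 0 with its own groups, 6 with the covariate, 5 with any probe set and 1 at a 2-fold minimum. The day difference in susceptible leaves (13 genes) gave 4 on unscaled values, 8 among brighter probe sets, 0 with its own groups, 3 with the covariate and 5 at a 2-fold minimum. In resistant leaves (7 genes) it gave 3 on unscaled values, 4 among brighter probe sets, 18 with array weights, 4 with its own groups and 4 at a 2-fold minimum. The cause of these moves was not tested.

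Leaving out each array in turn gave 0 to 12 genes for the aphid effect in susceptible leaves on day 1, 1 to 2 on day 7, and 0 for both aphid effects in resistant leaves and both day differences in aphid effect. It gave 0 to 15 and 0 to 3 for the cultivar difference in aphid effect on days 1 and 7, 10 to 20 and 0 to 4 for the uninfested cultivar difference on days 1 and 7, and 2 to 13 and 1 to 7 for the day difference in susceptible and resistant leaves.

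The replicate numbers were taken as pairs only where every same-numbered pair of arrays correlated above 0.1 in its deviations from the group means, which none of the 8 contrasts between 2 groups met (correlations from -0.357 to 0.457). The aphid effect in susceptible leaves on day 7 came nearest, with 0.071, 0.237 and 0.386, all above 0, and there the block gave 4 genes, against 1 without it. With the replicate block the aphid effects in susceptible leaves gave 5 genes on day 1 and 4 on day 7, the cultivar differences in aphid effect gave 2 on each day, the uninfested cultivar differences gave 22 and 3, and the day differences gave 12 in susceptible and 8 in resistant leaves.

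Without scaling the median of all probe sets moved to 0.258 for the aphid effect in susceptible leaves on day 7, -0.145 in resistant leaves on day 1, -0.249 for the cultivar difference in aphid effect on day 7, 0.392 for the day difference in aphid effect in susceptible leaves, 0.204 for the uninfested cultivar difference of day 1 and -0.119 for the day difference in resistant leaves. With median centring it was -0.112 and 0.113 for the aphid effect in susceptible leaves and the cultivar difference in aphid effect on day 7. Low signal limits BZIP58, BZIP48, BZIP112 and BZIP82, whose group means reach the 5th percentile of all values. Of the 54 calls, 23 were of genes with several probe sets, and in 8 of these not every probe set passed in the same direction.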

Other observations

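Of the 6 probe sets tied to several genes, 2 passed in a comparison. The probe set shared by the HY5-type genes BZIP36 and STF2 averaged 9.06 in uninfested resistant leaves of day 7 and 7.57 in those of day 1 (1.49 ± 0.32; limma, adjusted p = 0.0137). The probe set shared by BZIP73A and BZIP73B averaged 5.58 in infested susceptible leaves of day 7 and 6.23 in uninfested ones (-0.65 ± 0.15; limma, adjusted p = 0.0266). It averaged 5.76 in uninfested resistant leaves of day 7 and 6.43 in those of day 1 (-0.67 ± 0.15; limma, adjusted p = 0.017). The probe sets shared by BZIP124 and BZIP126, by BZIP76 and SOYSTGA, by SBZ1 and BZIP89, and by SBZ1, BZIP88 and BZIP89 passed in none of the 12.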
